A study of Macaca mulatta with 24 samples.

Results

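The proteasome is the large protease that degrades proteins tagged with chains of ubiquitin. Its barrel-shaped core particle is made of alpha rings, which gate the entrance, and beta rings, which hold the catalytic sites, and a regulatory particle on the end of the barrel binds the tagged protein, removes the ubiquitin, unfolds the chain with a ring of ATPases and threads it into the core. Every blood cell carries this machine, lymphocytes and other cells can exchange its catalytic beta subunits for inducible ones, and proteasomes also help to clear proteins while red cells mature. The genes described here encode the constitutive subunits and the chaperones named with them: all genes whose symbol on the array is PSMA, PSMB, PSMC or PSMD followed by a number, without the inducible subunits PSMB8, PSMB9 and PSMB10. The array held 32 of them, out of 14515 named genes, with 56 probes out of 43603. Of the 32, 15 belonged to the core particle, 14 to the regulatory particle, and 3, PSMD5, PSMD9 and PSMD10, encode chaperones that assemble the base of the regulatory particle and are not part of the finished complex.

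Gene expression was measured in whole blood of rhesus macaques with one-colour Agilent arrays. The groups were 7 pre-irradiation arrays without irradiation, and 4 arrays from day 3, 6 from day 5 and 7 from day 7 after 4 Gy given to the total body. The animals were Chinese-origin macaques 5 to 10 years old and of both sexes, and a replicate number was taken to stand for an animal, whose later samples are compared with its group's earlier ones. Irradiation and the time since the first sample cannot be told apart in this design. RNA came from unsorted blood, and globin transcripts were depleted before labelling. Each value below is a log2 signal, the log2 of the background-corrected spot brightness shifted so that the arrays shared 1 median, and each gene is represented by its brightest probe.

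Between 48.3% and 61.2% of probes were well above background. Replicate 2 of day 7 stood apart, with the lowest of these shares and a median processed signal of 16.7 before normalization, where the other arrays had 30.9 to 106. The scan session touches most comparisons. In 1 session 6 pre-irradiation and 6 day 7 arrays were scanned. The other session held all day 3 and day 5 arrays, with replicate 5 of the pre-irradiation and day 7 groups. The pre-irradiation against day 3 and day 5 comparisons therefore rest, within a scan session, on 1 pre-irradiation array. Day 7 against day 3 or day 5 rests in the same way on 1 day 7 array. Pre-irradiation and day 7 were split alike between the sessions, and days 3 and 5 shared a session. Markers of some blood cell types moved strongly. The summed signal of 5 of 5 B cell markers differed from pre-irradiation by -3.79, -3.99 and -3.72 on the log2 scale at days 3, 5 and 7, comparing group medians, and that of platelet markers, 4 of 5 on the array, by 3.11, 1.20 and 0.12. Neutrophil markers differed by 0.65, 0.61 and 0.70 and T cell markers by -0.80, -0.49 and -0.01. Monocyte markers differed by 0.07, -0.07 and 0.15 and NK cell markers by 0.44, 0.08 and -0.14. In such bulk samples, fewer cells of a type and less RNA per cell cannot be told apart.

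Of the 32 genes, 30 were tested, having a signal well above background on 4 or more of 24 arrays, and 29 of these cleared the background on every array. The exception was PSMD5, at 21 of 24. The genes PSMA8 and PSMB11, the tissue-restricted alpha and beta subunits of testis and thymus, were each well above background on 1 array of day 7 and were not tested. PSMB2, PSMC6, PSMD6 and PSMD11 had no probe under those symbols and were not analysed here.

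Just 4 probes carried a change that passed the main test against pre-irradiation, at an adjusted p under 0.005. Their sequences are shown here because each such call below is read from 1 of these runs of 60 bases. Calls under other settings or limits can rest on other probes. They are the brightest probes of PSMD9 and PSMD4 and the dimmer probes of PSMC2 and PSMD7, written in lower case from 5′ to 3′ with no part set apart.
PSMD9: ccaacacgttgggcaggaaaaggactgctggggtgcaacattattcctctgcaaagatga
PSMD4: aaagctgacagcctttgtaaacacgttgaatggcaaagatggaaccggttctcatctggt
PSMC2: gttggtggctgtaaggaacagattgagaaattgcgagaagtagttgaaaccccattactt
PSMD7: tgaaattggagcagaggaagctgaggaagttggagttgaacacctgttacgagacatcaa
The scanner output places them on the rheMac2 assembly. The PSMD9 probe lies at chr11:123003582-123003978 on the plus strand, a span of 397 bases for 60 bases of probe, so that it crosses at least 1 intron of the transcript. The PSMD7 probe also crosses an intron, at chr20:68351011-68351957 on the minus strand, a span of 947 bases. The PSMD4 probe lies within a single stretch at chr1:129693066-129693125, and the PSMC2 probe at chr3:140756362-140756421, both on the plus strand.

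The first question was how many subunit genes were called different from pre-irradiation on each day. At the limit used few were called, all of them lower, and at day 7 the share called lower was close to that of all named genes. A gene that was not called may still have differed. With limma and Benjamini-Hochberg adjustment over all tested probes, 1 of 30 genes was lower at day 3 at an adjusted p under 0.005, PSMD9, where 13.4% of all 10560 named genes tested were called and 7.55% of all named genes were called lower. At day 5, 2 of 30 were lower, PSMD9 and PSMD4, against 15.3% of named genes called and 9.07% called lower. At day 7 the same 2 genes were lower, against 9.86% called and 7.15% called lower. No subunit gene was called higher on any day, where 5.9%, 6.25% and 2.71% of named genes were. Without replicate 2, PSMD2 was called higher at day 7 (log2 change 0.76, adjusted p 0.00415 by limma), and without replicate 4, PSMB6 was called lower at day 5 (-0.91) and PSMB4 at day 7 (-0.78). All arrays of the later group lay outside the pre-irradiation range for 6, 2 and 2 of the 30 genes on the 3 days, and for 21.2%, 13.3% and 8.08% of named genes. An unadjusted p under 0.05 was found for 11, 13 and 10 of the 30 genes, and for 47%, 43.9% and 38.2% of named genes. At the wider limit of an adjusted p under 0.05, 8 genes were lower and 0 higher at day 3, 9 were lower and 2 higher at day 5, and 7 were lower and 1 was higher at day 7. Of all named genes, 36%, 33.9% and 26.3% passed that limit, 19.6%, 18.3% and 14.9% as lower and 16.4%, 15.6% and 11.4% as higher.

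The size of the changes was small for most of the complex. On days 3, 5 and 7 the 30 genes had median log2 changes of -0.26, -0.12 and -0.19, with all named genes at -0.00, -0.01 and -0.01. For the core particle, the 95% interval of the change lay within a 2-fold difference in either direction for 11, 12 and 11 of its 13 genes on the 3 days. For the regulatory particle this held for 13, 12 and 12 of 14 genes. These intervals are for single genes, without correction for the number of genes. Of the 3 chaperones, none had such an interval at days 3 and 5 and 1 had it at day 7.

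**Figure D1:**
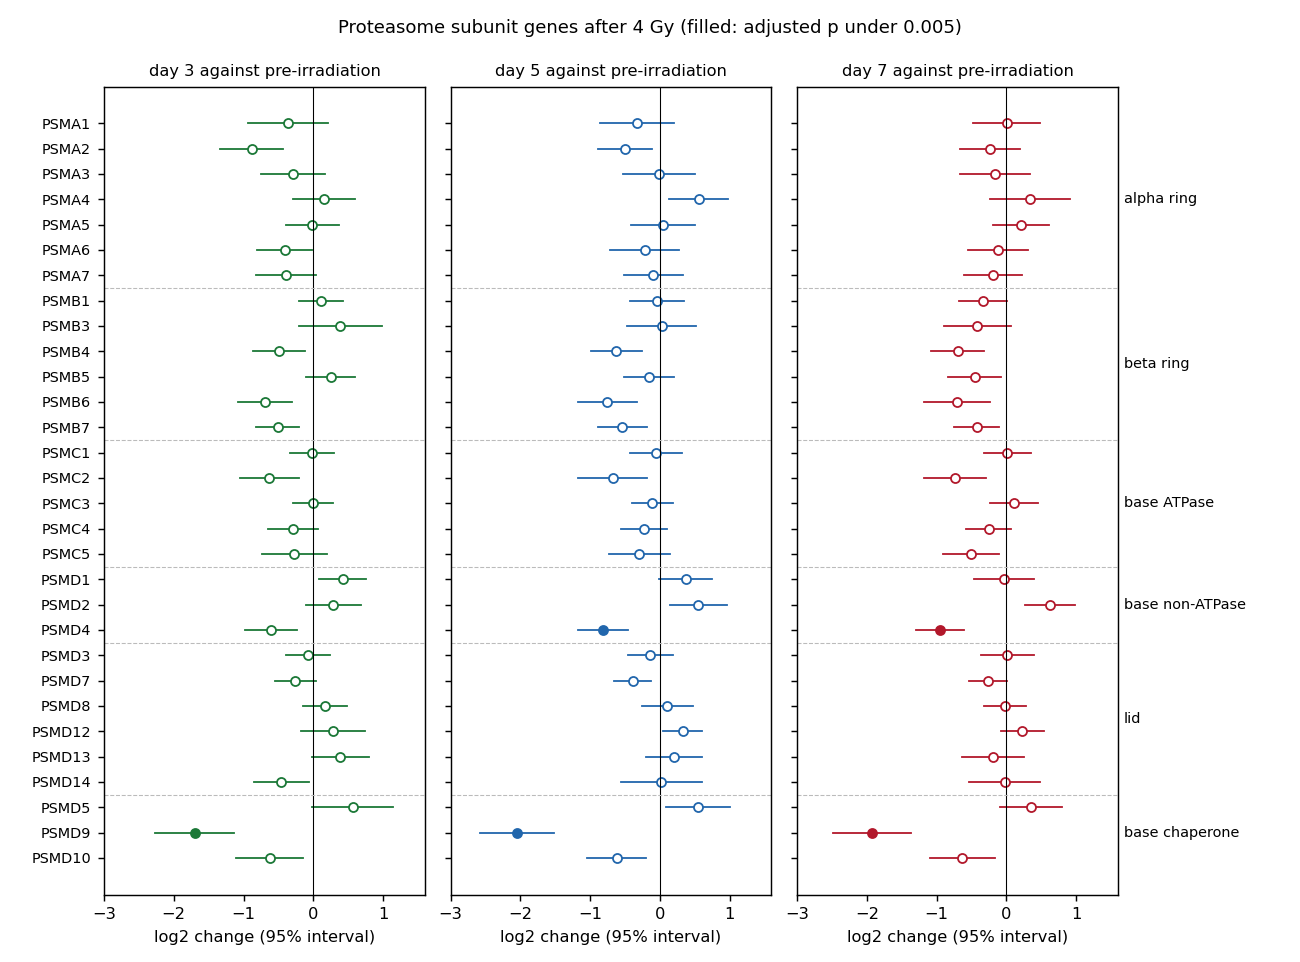
Log2 change of each of the 30 tested genes against pre-irradiation at days 3, 5 and 7 (horizontal axis, with its 95% interval from limma), ordered by place in the complex. Filled points have an adjusted p under 0.005: PSMD9 on all days and PSMD4 at days 5 and 7 stand to the left of 0, and the other intervals sit mostly between -1 and 1.

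The name PSMD9 rests on the array's gene symbol alone, since the description of both its probes is given as unknown. The chaperone of that name, also called p27, binds ATPase subunits of the base before the regulatory particle is finished. Before irradiation its log2 signal ran from 13.28 through a median of 14.02 to 14.64 (mean 13.94 ± 0.50 SD, n = 7). The day 3 values were 12.38, 12.05, 12.05 and 12.46 for replicates 1, 2, 4 and 7. All day 3 arrays were below every pre-irradiation array. The change was -1.70 (SE 0.26), a 3.25-fold lower signal with an adjusted p of 0.000793 by limma. Day 5 arrays ran from 11.33 through 11.92 to 12.44, and day 7 arrays from 11.36 through 11.82 to 12.98. Neither group overlapped the pre-irradiation arrays. The change was -2.05 (SE 0.25, adjusted p 4.42e-05 by limma) at day 5, a 4.14-fold lower signal, and -1.93 (SE 0.26, adjusted p 0.000119 by limma) at day 7, 3.80-fold lower. In the fit with the animal as a block, the day 3 adjusted p was 0.00628, which ended that call, and the calls at days 5 and 7 held. The day 3 and day 5 calls were lost with normexp background correction (adjusted p 0.0370 and 0.00900 by limma). With slide as a fixed block the day 5 call was lost (adjusted p 0.0198 by limma). So was the day 3 call, with a change of -2.39 that rests on 1 pre-irradiation array. The call at day 3 was also lost without replicate 1, 2 or 4, with changes of -1.68, -1.59 and -1.62. Without replicate 2, whose day 7 array stood apart, the day 7 change was -1.78 and was still called.

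The scan sessions could be compared for PSMD9 in part. With the 6 pre-irradiation and 6 day 7 arrays of the shared session alone, the change was -1.87 (adjusted p 0.000534 by limma). With session as a block the changes were -2.41 at day 3 (adjusted p 0.0149 by limma, no longer called) and -2.76 at day 5 (adjusted p 0.00319). These rest on the single pre-irradiation array of that session, the one with the highest PSMD9 signal, 14.64. The other PSMD9 probe was dim and gave no call. It was well above background on 5 of 7 pre-irradiation arrays, 1 of 4 at day 3, none of 6 at day 5 and 1 of 7 at day 7, so no fold is given for it.

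PSMD4 encodes the ubiquitin receptor Rpn10 of the base, which captures tagged proteins. Its pre-irradiation signal ran from 11.21 through 11.64 to 11.85 (mean 11.56 ± 0.25 SD, n = 7). At day 3 replicates 1, 2, 4 and 7 had 11.04, 10.74, 11.08 and 10.98. All of these lay below the pre-irradiation range, but the change of -0.61 did not pass the test (adjusted p 0.0163 by limma). At day 5 the arrays ran from 10.47 through 10.65 to 11.28, with 1 of 6 inside the pre-irradiation range, and at day 7 from 10.27 through 10.46 to 11.05, with none inside it. The gene was lower by 1.76-fold at day 5 (log2 change -0.82, SE 0.17, adjusted p 0.00219 by limma) and by 1.93-fold at day 7 (log2 change -0.95, SE 0.16, adjusted p 0.000677). With the animal as a block neither call held, at adjusted p 0.0118 and 0.00631. Both were also lost with normexp background correction, at adjusted p 0.107 and 0.165 by limma, and with no filter on dim probes, at 0.103 and 0.0338. Slide as a fixed block (adjusted p 0.138 by limma) and the authors' series matrix (0.00944) ended the day 5 call alone. Without replicate 1, 2, 3 or 7 the day 5 call was lost, with changes from -0.84 to -0.71. Leaving out replicate 1 ended the day 7 call, at -0.88. Without replicate 2 the day 7 change was -0.85, still called. Within the scan session shared by pre-irradiation and day 7 the change was -0.97 (adjusted p 0.00291). With session as a block, the day 5 change was -0.89 and was not called (adjusted p 0.139).

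**Figure D2:**
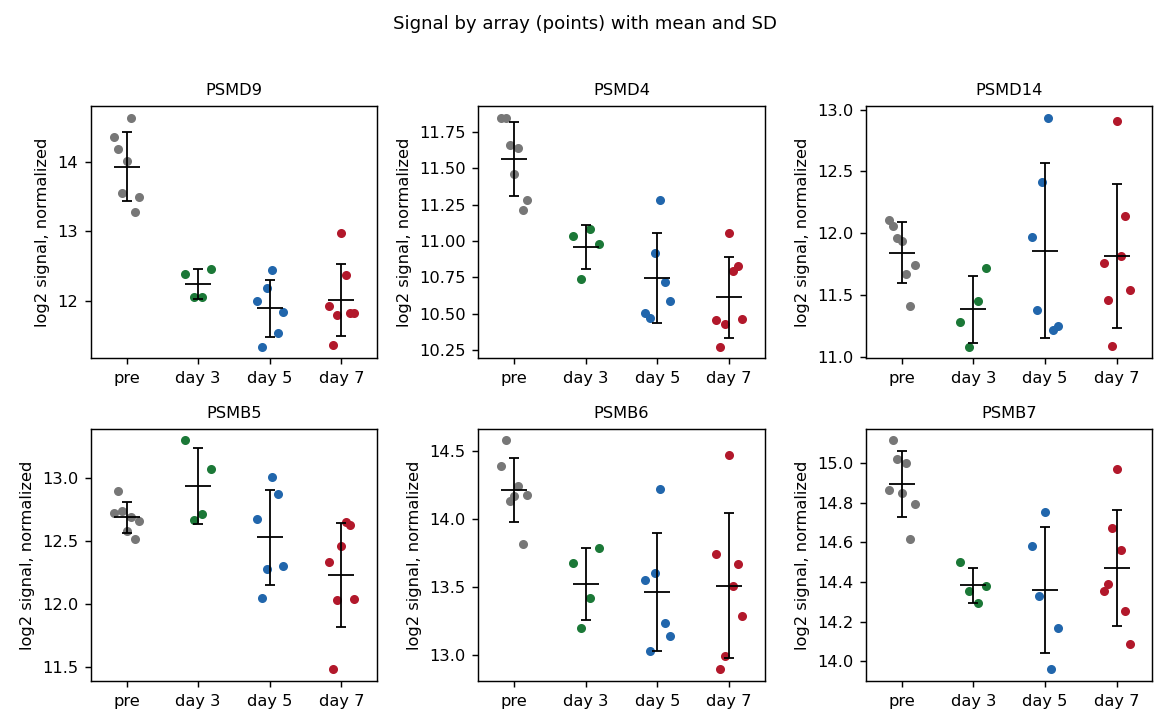
Normalized log2 signal (vertical axis) of PSMD9, PSMD4, PSMD14 and the 3 catalytic genes PSMB5, PSMB6 and PSMB7 in each array (points) by day, with mean and SD bars. PSMD9 separates from pre-irradiation on every day, while PSMB6 and PSMD14 each have an array of day 5 and of day 7 that lies within or above the pre-irradiation range.

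The fall of both genes ran beside a fall of red cell transcripts. The summed log2 signal of 5 of 5 erythroid markers (HBB, ALAS2 and SLC4A1 among them) ranged from 19.55 to 20.68 in the pre-irradiation arrays. On days 3, 5 and 7 its ranges were 17.75 to 18.74, 14.94 to 15.93 and 12.45 to 19.07. Every later array was below the lowest pre-irradiation array. Without HBB, which the globin depletion targets, the ranges were 18.51 to 19.50, 14.81 to 16.54, 11.60 to 13.40 and 11.03 to 17.79. Each marker was well above background on some array of every group, except SLC4A1, the red cell anion exchanger, at day 5. Among day 7 arrays, replicate 4 had the highest erythroid signal (19.07), the highest PSMD9 signal (12.98) and the highest PSMD4 signal (11.05). It was also the highest day 7 array for 24 of the 30 subunit genes, so that this is not particular to these 2. The part of red cell precursors in the change of PSMD9 and PSMD4, and that of the B cell and platelet shifts above, was not tested.

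**Figure D3:**
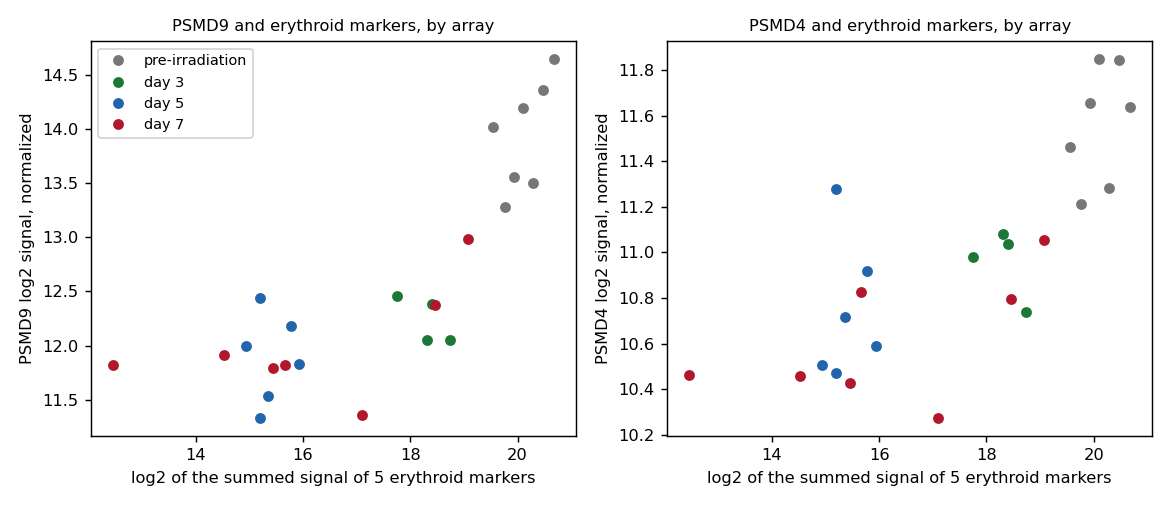
Normalized log2 signal of PSMD9 (left) and PSMD4 (right) against the log2 summed signal of 5 erythroid markers, with 1 point per array coloured by day. Pre-irradiation arrays lie at the upper right in both panels, and the points of days 3, 5 and 7 lie at lower erythroid signal.

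The other base chaperones did not share the size of the PSMD9 change. PSMD10, or gankyrin, had log2 changes of -0.63, -0.62 and -0.63 at days 3, 5 and 7, with adjusted p of 0.0440, 0.0255 and 0.0427 by limma. PSMD5, which binds the ATPase ring during assembly, had changes in the other direction, 0.56, 0.54 and 0.36, none of which passed the test. Its signal was dim, well above background on 5 of 7 pre-irradiation arrays, and every later array lay inside the pre-irradiation range.

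The catalytic sites of the core are formed by PSMB5, PSMB6 and PSMB7, which carry the chymotrypsin-like, caspase-like and trypsin-like activities. None of the 3 passed the test on any day. The signal of PSMB6 was 13.81 to 14.58 before irradiation, around a median of 14.18. At day 3 it was 13.68, 13.20, 13.42 and 13.79 for replicates 1, 2, 4 and 7, below every pre-irradiation array. At day 5 it ran from 13.02 through 13.39 to 14.22 and at day 7 from 12.89 through 13.51 to 14.47, and 1 array of each day overlapped the pre-irradiation range. The log2 changes were -0.69, -0.75 and -0.70, with adjusted p of 0.0108, 0.00869 and 0.0279 by limma. Its dimmer probe read -0.62, -0.61 and -0.38 and was not called.

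PSMB7 showed a similar pattern. Its pre-irradiation arrays lay between 14.62 and 15.11 around a median of 14.86, and day 3 replicates 1, 2, 4 and 7 at 14.50, 14.35, 14.29 and 14.38. The day 3 arrays were all lower than the pre-irradiation ones. Day 5, where 1 array was left out because its spot carried an outlier flag, ran from 13.96 through 14.33 to 14.75, and day 7 from 14.09 through 14.39 to 14.97, so that both overlapped pre-irradiation. The changes were -0.51, -0.54 and -0.42, with adjusted p of 0.0152, 0.0212 and 0.0496 by limma.

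PSMB5 had another course. Before irradiation it lay between 12.52 and 12.90 with a median of 12.69, and at day 3 replicates 1, 2, 4 and 7 gave 13.29, 12.67, 12.71 and 13.07. Replicates 1 and 7 of day 3 were above all pre-irradiation arrays. At day 5 the range was 12.05 to 13.00 with a median of 12.49, and at day 7 it was 11.48 to 12.65 with a median of 12.34, lower than every day 3 array. The log2 changes from pre-irradiation were 0.25, -0.16 and -0.45. Day 7 against day 3 gave -0.70 (SE 0.25, adjusted p 0.0727 by limma), which did not pass the test. Most day 7 arrays were scanned in another session than day 3.

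The remaining beta subunits are structural. PSMB4 had changes of -0.49, -0.62 and -0.70 at days 3, 5 and 7, PSMB3 of 0.39, 0.03 and -0.41, and PSMB1 of 0.12, -0.04 and -0.33. At day 7 all 6 tested beta genes were below 0, between -0.70 and -0.33 with a median of -0.44, and none was called.

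In the alpha ring, which opens and closes the core, no gene was called either. PSMA2 had the greatest distance from 0, at -0.88 at day 3 (adjusted p 0.00682 by limma), followed by -0.50 and -0.23 on the later days. PSMA4 was at 0.16, 0.56 and 0.34. The other 5, PSMA1, PSMA3, PSMA5, PSMA6 and PSMA7, lay between -0.41 and 0.21 on all days. Over the 7 alpha genes the medians were -0.37, -0.09 and -0.13.

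From day 3 to the later days most alpha and beta genes had changes of opposite sign, and no single gene passed the test. From day 3 to day 7, 7 of 7 alpha genes had a positive change (median 0.22) and 5 of 6 beta genes a negative one (median -0.33); from day 3 to day 5 it was 7 of 7 and 6 of 6. From day 5 to day 7 the signs were mixed, with 4 of 7 alpha changes positive (median 0.09) and 4 of 6 beta changes negative (median -0.18). The mean deviation of the alpha genes from their pre-irradiation means, minus that of the beta genes, was taken in each array, a measure added after the values were seen and given without a test. Pre-irradiation arrays had -0.33 to 0.31, day 3 arrays -0.22 to -0.09, day 5 arrays 0.00 to 0.47 and day 7 arrays 0.25 to 0.64. Day 3 arrays lay below all arrays of days 5 and 7, and 6 of the 7 day 7 arrays were above the pre-irradiation range, the exception being replicate 2. Averaging all tested probes of a gene in place of the brightest gave ranges of -0.25 to -0.06, -0.07 to 0.41 and 0.29 to 0.54 for these 3 days, where day 3 and day 5 then overlapped. Replicate 5 gave the only pre-irradiation and day 7 arrays scanned in the session of days 3 and 5. It had -0.33 before irradiation, the lowest of its group, and 0.42 at day 7.

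Core and regulatory particle were compared next, through the median change of their genes. On days 3, 5 and 7 it was -0.37, -0.16 and -0.23 for the core and -0.05, -0.08 and -0.03 for the regulatory particle. Leaving out 1 animal moved the core medians within -0.43 to -0.25, -0.22 to -0.03 and -0.34 to -0.15, and the regulatory ones within -0.08 to -0.01, -0.21 to -0.02 and -0.18 to -0.00. Other settings turned the sign of each median: the highest values were 0.01 with slide as a block, 0.14 with no filter on dim probes and 0.04 with no filter for the core, and 0.12, 0.21 and 0.24 with no filter for the regulatory particle, on days 3, 5 and 7. Core minus regulatory medians thus came to -0.32, -0.07 and -0.20 on the log2 scale. In single arrays the mean deviation of core minus regulatory genes spanned -0.26 to 0.25 in pre-irradiation arrays and -0.30 to 0.08, -0.39 to 0.17 and -0.38 to 0.10 on the 3 later days. The groups overlapped throughout. With scan session as a block the day 3 difference of medians was 0.13, with slide as a block 0.12, and in the authors' filtered values 0.34, so its sign depended on these settings. On day 7 it was 0.20 in the authors' filtered values, also with the sign turned. Leaving out 1 animal gave -0.37 to -0.17 at day 3, the latter without replicate 7, and -0.12 to 0.01 on day 5, where the sign turned without replicate 2. On day 7 it gave -0.26 to -0.13, the latter without replicate 4.

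Within a day the animals differed widely. The mean deviation of the core spanned -0.62 to 0.30 on day 5, -0.76 to 0.40 on day 7 and -0.19 to 0.19 before irradiation. That of the regulatory particle spanned -0.37 to 0.40, -0.39 to 0.30 and -0.12 to 0.19. Replicate 2 gave the low end of both ranges on day 7, and without it the core started at -0.44. In both particles replicate 4 was above 0 on days 5 and 7, and it was the highest of its group at day 7. The SD of the core mean between arrays was 0.38 at day 5 and 0.36 at day 7, against 0.14 before irradiation, a difference that was not tested.

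**Figure D4:**
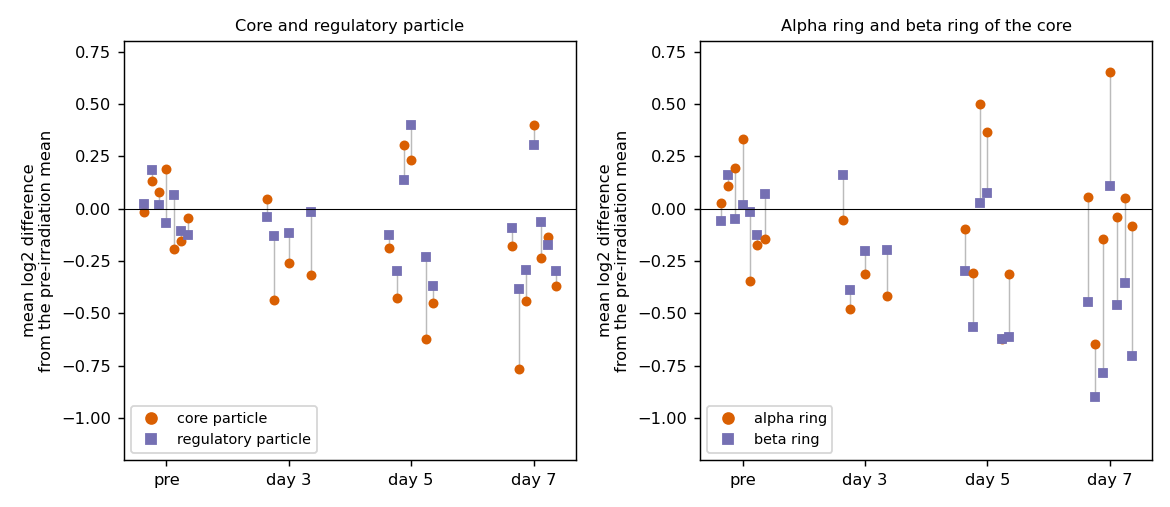
Mean log2 difference from each gene's pre-irradiation mean (vertical axis) in every array, by day, for core and regulatory particle genes (left) and for alpha and beta ring genes (right); a line joins the values of 1 array. Core and regulatory values overlap in each group, while at day 7 the alpha ring value lies above the beta ring value in all 7 arrays.

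Within the regulatory particle, PSMC2, an ATPase of the base, had changes of -0.63, -0.68 and -0.74 in its brightest probe, which was not called. Its second probe, shown above, was at -1.02, -1.07 and -0.88 and was called lower at day 3. The other ATPases lay between -0.51 and 0.11 on all days in their brightest probes, with PSMC5 at -0.27, -0.29 and -0.51. The dimmer PSMC1 probes read 0.38 and 0.42 at day 7, where the brightest read 0.01, and none was called. In the non-ATPase part of the base, the large scaffold subunits PSMD2 (0.29, 0.55 and 0.63) and PSMD1 (0.42, 0.37 and -0.03) had values opposite to the receptor PSMD4 at days 3 and 5. The day 7 change of PSMD2 had an adjusted p of 0.0124 by limma. The dimmer PSMD1 probe read 0.16, 0.21 and 0.39 on the same days and was not called.

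PSMD14 encodes the lid enzyme Rpn11, which cuts ubiquitin chains from the substrate. Its pre-irradiation signal was 11.41 to 12.10 with a median of 11.94, and day 3 replicates 1, 2, 4 and 7 had 11.28, 11.08, 11.45 and 11.72. Day 5 ran from 11.21 through 11.67 to 12.93 and day 7 from 11.08 through 11.76 to 12.91. All later groups overlapped pre-irradiation and had wider ranges at days 5 and 7, with an SD of 0.71 and 0.58 against 0.25. The changes were -0.46 (adjusted p 0.0672 by limma), 0.02 and -0.03. Of the other lid genes, PSMD7 was at -0.25, -0.39 and -0.27 in its brightest probe and at -0.37, -0.56 and -0.36 in the one shown above, which was called lower at day 5. PSMD12, PSMD13, PSMD3 and PSMD8 lay between -0.19 and 0.39 in their brightest probes. Dimmer probes of PSMD8 and PSMD12 read -0.44 and 0.93 at day 7, and neither was called.

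Males and females were compared for the day 7 change. Of 30 genes, 0 differed by sex at an adjusted p under 0.05 by limma, and 0 probes of the whole array were called. PSMD10 alone had an unadjusted p under 0.05, with a change of -1.06 in males and -0.06 in females. Arrays of each sex were few, and the paper calls the study under-powered for such differences. The lack of calls therefore does not show that the sexes responded alike.

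Genes that work with the proteasome were read in the same way. A list of 42 inducible subunits, activators, assembly factors, transcription factors, ubiquitin genes and shuttle proteins had 33 on the array, all tested. At day 3, 1 was higher and 5 lower, at day 5 2 were higher and 6 lower, and at day 7 1 was higher and 4 were lower. These are 18.2%, 24.2% and 15.2% of the 33, where 13.4%, 15.3% and 9.86% of named genes were called. Their median change was -0.17, -0.23 and -0.18.

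Ubiquitin precursor genes were among those called. UBB, which encodes a chain of ubiquitin units, was lower by 2.08-fold, 2.80-fold and 2.88-fold at days 3, 5 and 7 (log2 change -1.05, -1.49 and -1.53, adjusted p 0.00233, 3.70e-05 and 7.06e-05 by limma). RPS27A, a ubiquitin fused to a ribosomal protein, had -1.18, -1.43 and -1.81 and was called lower on all 3 days. Ubiquitin genes share their coding sequence and have processed copies, and which of them a probe reads was not tested. UBA6, an enzyme that activates ubiquitin, went the other way, at 0.64, 0.93 and 1.18, called higher at days 5 and 7.

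RAD23B, a shuttle that carries tagged proteins to the proteasome, was lower at day 5 (log2 change -0.53). PSMF1, the proteasome inhibitor PI31, was lower at days 3 and 5 (-0.97 and -1.10). The core assembly factors POMP and PSMG4 were lower at day 3 (-0.86 and -1.07), with values of -0.12 and -0.16 at day 7. KIAA0368, the proteasome adaptor ECM29, was higher at days 3 and 5 (0.66 and 0.76).

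The inducible catalytic subunits were measured through PSMB9 and PSMB10, and no probe bore the symbol PSMB8. PSMB10 was at 0.93 (adjusted p 0.00607 by limma), 0.48 and -0.15, and PSMB9 at 0.37, 0.22 and -0.66 at days 3, 5 and 7. Neither was called. From day 3 to day 7 their changes were -1.08 and -1.03, neither of which passed the test. These days were scanned mostly in different sessions.

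Between the irradiated days, 0 of the 30 constitutive genes passed the test in limma for day 5 against day 3, day 7 against day 3 or day 7 against day 5, where 0.0379%, 1.59% and 0.00947% of all named genes were called. An unadjusted p under 0.05 was found for 0, 4 and 0 of them, and for 11.1%, 34.2% and 21.1% of named genes. PSMB5 was the 1 member of 30 whose day 7 and day 3 arrays did not overlap, where 13.5% of named genes did not. Scan session and day cannot be told apart for most arrays in day 7 against day 3 or day 5.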

How the data were processed

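Per the labels, RNA of whole blood was depleted of globin transcripts, labelled with Cy3 and hybridised to rhesus 4x44K arrays. The scanner files deposited by the authors hold spot intensity (background-corrected and not normalized between arrays), read with Agilent Feature Extraction 12.0.2.2 by the file headers and 10.7 by the submitters' processing notes. The deposited series matrix holds the authors' log2 values of a filtered set; over 18497 matched rows, 16 of them member probes of 13 genes, they followed the values computed here (lowest r 0.99997) after a shift of each array by -1.00 to 1.74, with a largest residual SD of 0.025, and their column medians were 7.37 to 7.70.

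Outlier-flagged spots were left out, replicate spots of a probe averaged, and log2 intensity shifted by each array's median to that of the array with the middle median (shifts -0.87 to 2.03). Of 43603 probes, 27133 cleared the background on 4 or more of 24 arrays. These were tested with limma 3.58.1 (R 4.3.3), for each pair of groups, two-sided, with Benjamini-Hochberg adjustment and a limit of 0.005. The adjustment and the limit follow the paper, which used BRB ArrayTools and compared each day with pre-irradiation only. Scripts were tested on simulated data. A gene is its brightest probe, and no level is compared between probes. Signals of PSMB5, PSMB6, PSMB7, PSMD4, PSMD14 and of up to 2 called genes per class are given by array, all other members by their changes, and up to 3 called genes of each group in the list of 42, of which some are counted but not reported here by name.

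The members and lists were chosen with earlier results of these data known. Replicate numbers paired arrays: deviations from group means correlated at 0.13 to 0.45 between a pre-irradiation array and the later array of its number. The labels name X-rays and day 0 where the methods name gamma rays and a sample taken before exposure; this does not change the groups. The number of arrays limits the precision. No genome of the rheMac2 build was used here.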

Additional observations from a re-analysis of the deposited data

How the results depend on the processing

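Changes of direction or of calls were looked for under other scalings, background corrections, filters, blocks and left-out animals. Neither PSMD9 nor PSMD4 turned direction on a day it was called; the called partner genes were not rerun. The count of subunit genes called, 1, 2 and 2 at days 3, 5 and 7, became 0, 0 and 1 with the normexp background, 0, 1 and 1 with the replicate block, and 8, 11 and 8 at an adjusted p under 0.05. With scan session as a block it was 0 at day 3 and 1 at day 5, and with slide as a fixed block 0 and 0. At day 3 it was 2 for probes well above background on all 24 arrays, for all 4 groups in 1 fit, and for any tested probe of a gene, which gave 3 at day 5. It was 1 at days 5 and 7 with no filter, and 1 at day 5 in the authors' series matrix. Leaving out 1 animal gave 0 to 1, 1 to 3 and 1 to 3 genes: 0 at day 3 without replicate 1, 2 or 4, 1 at day 5 without 1, 2, 3 or 7 and at day 7 without 1, and 3 at day 5 without 4 and at day 7 without 2 (1 of them, PSMD2, higher) or 4. Between days the count was 0 throughout.

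Core medians moved to 0.0101 (slide block) and -0.0175 (session block) at day 3, and to -0.56 (normexp) and 0.14 (no filter) at day 5. Regulatory medians moved to -0.50 in the series matrix at day 3, to -0.51 (normexp), 0.21 (no filter) and 0.15 (slide block) at day 5, and to 0.24 (no filter) and -0.37 (series matrix) at day 7. Core minus regulatory moved to 0.34 (series matrix), 0.12 (slide block) and 0.13 (session block) at day 3, and to 0.20 (series matrix) at day 7. The series matrix covers 13 of the genes; the cause of the other shifts was not tested. A session block could not be fitted for day 5 against day 3, whose arrays share 1 session. Dim probes, such as the second of PSMD9, and 4 arrays at day 3 limit what can be called.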
